A study of Homo sapiens and Mus musculus with 15 samples.

Results

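Bortezomib resistance was compared between a human and a mouse myeloma line by a difference of differences in gene expression. The human line was RPMI-8226, called 8226 here, and the mouse line was 5TGM1, a plasma cell myeloma line of C57Bl/KaLwRij mice. For each gene, the change in 5TGM1 (resistant minus naive) was subtracted from the change in 8226 (resistant minus naive), on a log2 scale. Genes were paired across species by symbol, ignoring case, which gave 15494 shared symbols. Of these, 8814 had enough reads for a test in both lines, and these are the genes described as tested below. A shared symbol is not proof of orthology, and symbols are printed in capitals for both species.

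The comparison used 12 of the 15 libraries of the series, in 4 groups of 3. Resistant 8226 (8226.BR) was maintained in 10 nM bortezomib, and resistant 5TGM1 (5TGM1.BR) in 20 nM, after several months of culture in rising drug. Both were off the drug for 5 days before RNA was extracted. Their references were naive 8226 (8226.wt) and naive 5TGM1 (5TGM1.wt), which had not been selected. All lines were grown in IMDM with 20% FBS and used within 1 month of thawing, and total RNA was sequenced. Each resistant group is a single derivation, so changes that came with deriving it cannot be told apart from resistance. The maintenance doses also differed, so line and dose cannot be told apart. Whether the 3 libraries of a group came from separate cultures is not stated, and the spread behind the p-values may be technical.

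Bortezomib blocks the proteasome, the complex that degrades ubiquitin-tagged proteins, by binding the chymotrypsin-like subunit encoded by PSMB5. Plasma cells secrete antibody, and so rely on the endoplasmic reticulum (ER), where new chains are folded by chaperones and disulfide isomerases. Misfolded chains are returned to the cytosol and degraded by the proteasome, a route known as ER-associated degradation. When folding falls behind, the unfolded protein response raises the chaperones, through the ER sensor ERN1 and the transcription factor XBP1 among others. A related pathway, the integrated stress response, slows translation and raises genes of amino acid supply.

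Library depth was 31709600 to 34339800 reads on genes in resistant 8226, against 39032700 to 46874800 in naive 8226, and 49157900 to 57896700 in resistant 5TGM1, against 49097500 to 72288700 in naive 5TGM1. Plasma cell markers were high in both lines, with summed levels, in CPM (reads scaled to the TMM-adjusted library size), of 3904 to 4014 in resistant 8226, against 8725 to 9896 in naive 8226. In 5TGM1 the sum covers 9 of the 10 markers, without MZB1. It was 8999 to 9378 CPM in resistant 5TGM1, against 6621 to 6874 CPM in naive 5TGM1. Of the other cell types checked, B cell markers summed to 0.547 to 0.574 CPM in resistant and 6.61 to 6.98 CPM in naive 8226, and to 148 to 156 CPM in resistant and 129 to 136 CPM in naive 5TGM1. In 5TGM1, 1 of the 6 B cell markers passed 1 CPM in every library. Macrophage markers summed to 58.8 to 61.9 CPM in resistant and 56.8 to 62.2 CPM in naive 8226, and to 351 to 402 CPM in resistant and 266 to 269 CPM in naive 5TGM1, where CD68 was the 1 of 8 markers over 1 CPM in every library. The level sum in 8226 holds opposite moves: CD68 had 8.49 to 8.75 CPM in resistant 8226, against 46.8 to 52.2 CPM in naive 8226, while AIF1 had 23.6 to 26.7 CPM in resistant 8226, against 2.78 to 3.34 CPM in naive 8226, and EMR1 had 16.2 to 17.5 CPM in resistant 8226, against 0.496 to 0.612 CPM in naive 8226. T and NK cell markers summed to 15.3 to 16.3 CPM in resistant 8226, against 9.58 to 10.9 CPM in naive 8226, and to under 2 CPM in all 5TGM1 libraries. Outside annotated genes lay 14.9% to 16.6% of reads in resistant 8226, against 10.4% to 12.9% in naive 8226. The part of these differences in the results was not tested. In bulk RNA, fewer cells with a transcript and less of it per cell cannot be told apart.

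Most of the tested genes differed between the lines. The difference was called for 6663 of the 8814 genes tested (75.6%), at an adjusted p below 0.05. It was higher in 8226 for 3205 genes (36.4%) and lower for 3458 (39.2%), and it reached 1 on the log2 scale for 982 (11.1%) and 1309 (14.9%). Those counts depend on scaling: 48.1% of the calls were higher in 8226 with TMM scaling, and 61.3% with library size alone, which raised every 8226 change by 0.201 log2. All changes below are relative to the TMM scale.

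The 8226 line changed more. Libraries of resistant and naive cells did not overlap for 6970 genes in 8226 (79.1%) and 6232 in 5TGM1 (70.7%). The median absolute change was 0.45 log2 in 8226, against 0.22 in 5TGM1, and 1963 genes reached 1 log2 in 8226, against 603 in 5TGM1. In 8226, 3372 genes rose (38.3%) and 3774 fell (42.8%), and in 5TGM1 2712 rose (30.8%) and 2685 fell (30.5%). Across the 8814 genes, which are not independent replicates, Pearson's r between the changes of the lines was 0.042. Genes that rose in 8226 and fell in 5TGM1 numbered 891 (10.1%), and those that fell in 8226 and rose in 5TGM1 numbered 1076 (12.2%). At 1 log2 or more in both lines there were 72 (0.817%) of each kind. These shares over all genes tested are the background for the list counts below.

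**Figure D1:**
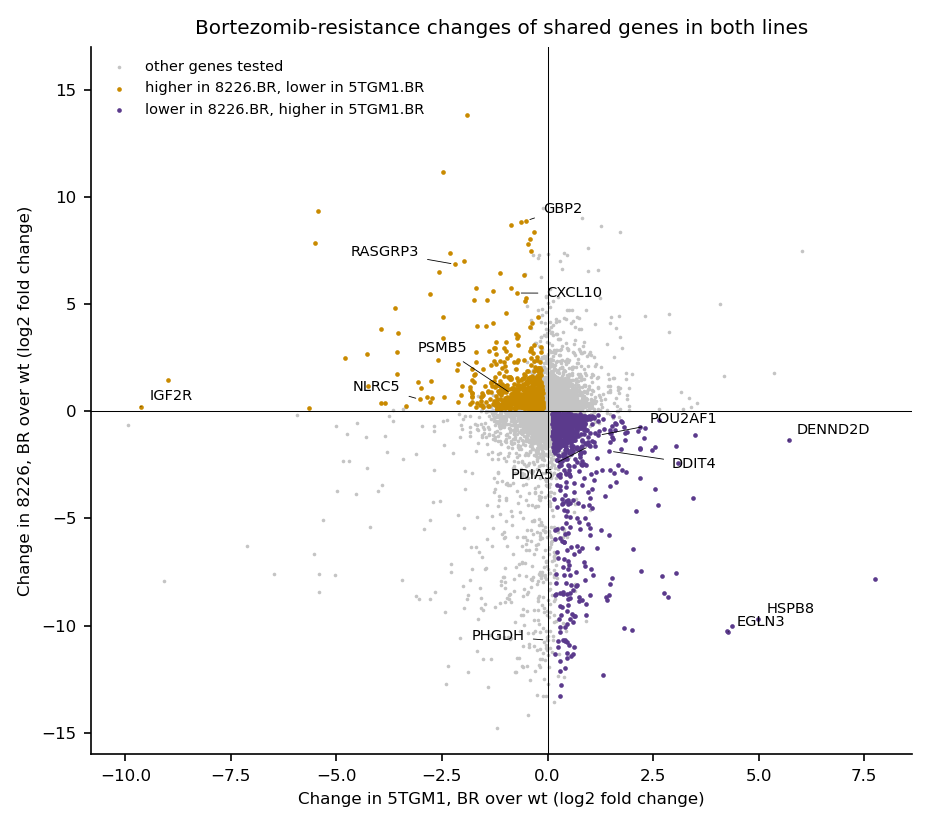
Each point is a tested gene, with its log2 change (resistant minus naive) in 5TGM1 on the x axis and in 8226 on the y axis; coloured points are genes called with opposite changes. The cloud is taller than it is wide, since the median absolute change was 0.45 in 8226 and 0.22 in 5TGM1.

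ER chaperones and folding enzymes mostly fell in 8226 and mostly rose in 5TGM1. Of the 30 tested, 24 fell and 2 rose in 8226, while 20 rose and 5 fell in 5TGM1. The difference was lower in 8226 for 25 and higher for 2, with a list median of -0.99, beside -0.02 over all genes tested. The opposite pair of calls, down in 8226 and up in 5TGM1, was made for 16 of the 30. The promoters of 4 of these genes are shown for the sequence they share. The ER stress response element (ERSE), read as CCAAT, 9 bases of any kind and CCACG on either strand, lies in 6 of the 28 chaperone promoters found in RefSeq (21.4%), in the 250 bases before the start of the gene. It lies in 12 of the 7358 promoters of tested genes (0.163%) and in 22 of all 27305 (0.0806%). Besides the 4 shown, CANX and ERO1LB carry it, and the CANX difference changed sign with library size alone. Whether the element has a part in the changes was not tested. Each element contains a CCAAT box, which alone lies in 71.4% of the chaperone promoters and 33.0% of all promoters. They are given 5′ to 3′ from RefSeq, build GRCh38.p14, with the element in capitals, for HSPA5 (chr9:125241344-125241593, minus strand), HSP90B1 (chr12:103930160-103930409, plus strand), CALR (chr19:12938359-12938608, plus strand) and CRELD2 (chr22:49918384-49918633, plus strand). They encode the luminal chaperones BiP, GRP94 and calreticulin and a folding factor. A match is a description of the letters and does not show that a factor bound there.
HSPA5: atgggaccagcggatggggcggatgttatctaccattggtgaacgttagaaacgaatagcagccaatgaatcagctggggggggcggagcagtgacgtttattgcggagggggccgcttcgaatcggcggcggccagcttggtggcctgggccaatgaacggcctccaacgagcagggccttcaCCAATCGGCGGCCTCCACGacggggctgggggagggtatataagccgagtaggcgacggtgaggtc
HSP90B1: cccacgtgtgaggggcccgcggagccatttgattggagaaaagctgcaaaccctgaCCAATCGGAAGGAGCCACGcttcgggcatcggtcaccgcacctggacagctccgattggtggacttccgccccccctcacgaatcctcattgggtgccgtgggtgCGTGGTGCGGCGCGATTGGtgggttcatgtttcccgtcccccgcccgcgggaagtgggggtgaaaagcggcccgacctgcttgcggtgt
CALR: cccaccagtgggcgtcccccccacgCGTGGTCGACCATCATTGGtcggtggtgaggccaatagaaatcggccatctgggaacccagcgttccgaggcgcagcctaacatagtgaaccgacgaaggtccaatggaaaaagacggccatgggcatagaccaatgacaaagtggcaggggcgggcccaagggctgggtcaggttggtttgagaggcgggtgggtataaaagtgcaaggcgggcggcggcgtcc
CRELD2: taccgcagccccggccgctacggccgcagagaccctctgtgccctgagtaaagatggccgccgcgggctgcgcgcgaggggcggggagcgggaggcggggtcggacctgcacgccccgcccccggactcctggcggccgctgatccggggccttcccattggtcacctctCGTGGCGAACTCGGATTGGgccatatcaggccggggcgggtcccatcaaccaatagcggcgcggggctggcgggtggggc

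HSPA5, the ER member of the HSP70 family, had 1046, 1029.96 and 1044 CPM in resistant 8226, against 1928, 2025 and 1881 CPM in naive 8226. In the mouse line it had 2591, 2657 and 2651 CPM in resistant 5TGM1, against 2376, 2379 and 2456 CPM in naive 5TGM1. It fell by about the same amount in each resistant 8226 library, and its difference was -1.03 ± 0.065 (SE, adjusted p = 2.4e-10). The small 5TGM1 rise (0.13) lost its call when any of 4 single libraries was left out. HSP90B1 had 1379, 1333 and 1248 CPM in resistant 8226, against 2285, 2421 and 2083 CPM in naive 8226, and 4165, 4216 and 4355 CPM in resistant 5TGM1, against 3756, 3666 and 3708 CPM in naive 5TGM1. Resistant and naive libraries did not overlap in either line, and the difference was -0.97 ± 0.082 (adjusted p = 1.2e-08). For CALR the difference was -1.11 ± 0.07 (adjusted p = 2.5e-10), made up of a fall in 8226 (-0.99) and a 5TGM1 change of 0.12 whose call was lost without any of 8 single libraries. CRELD2 differed by -0.72 ± 0.08 (adjusted p = 3.6e-07), from a change of -0.28 in 8226 that lost its call with library size alone, and a rise of 0.44 in 5TGM1.

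The disulfide isomerases PDIA5 and PDIA4 differed most among them. PDIA5 had 22.4, 21.7 and 23.1 CPM in resistant 8226, against 67.6, 73.7 and 64.5 CPM in naive 8226, and 124, 125 and 126 CPM in resistant 5TGM1, against 64.1, 60.6 and 62.1 CPM in naive 5TGM1. Its difference, -2.62 ± 0.077 (adjusted p = 8e-15), came from changes of more than 1 log2 in both lines. PDIA4 had 231, 230.3 and 249.6 CPM in resistant 8226, against 848, 811 and 879.5 CPM in naive 8226, and 1533, 1494 and 1507 CPM in resistant 5TGM1, against 961, 989.8 and 1014 CPM in naive 5TGM1, a difference of -2.45 ± 0.071 (adjusted p = 6.7e-15). P4HB, which also serves as a subunit of collagen prolyl hydroxylase, showed the same pattern, with changes of -1.50 ± 0.047 in 8226 and 0.55 ± 0.046 in 5TGM1. The prolyl isomerase PPIB (-1.97 in 8226 and 0.41 in 5TGM1), the peroxidase PRDX4 (-1.48 and 0.42) and the BiP co-chaperone DNAJB9 (-1.65 and 0.30) fell in 8226 and rose in 5TGM1 as well.

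Translocation and ER-associated degradation genes were less uniform. Of 43 tested, 24 had a difference lower in 8226 and 7 higher, with a median of -0.43, and 28 fell and 12 rose in 8226, against 13 and 11 in 5TGM1. DERL1, a channel component of the degradation route, fell by 1.41 in 8226 and rose by 0.25 in 5TGM1, and the translocon subunit SSR2 fell by 1.03 and rose by 0.40. EDEM1, which marks misfolded glycoproteins, fell to 117, 118 and 108 CPM in resistant 8226, against 369, 307 and 388 CPM in naive 8226, with a 5TGM1 change of 0.14 (95% interval 0.00 to 0.29). HERPUD1 behaved likewise, with -1.34 in 8226 and a 5TGM1 interval of -0.13 to 0.06. DERL3 and SSR3 fell in both lines and more in 8226.

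Upstream of these genes, ERN1, the sensor that splices XBP1 mRNA, had 15.4, 20.1 and 19.8 CPM in resistant 8226, against 38.7, 30.8 and 34.3 CPM in naive 8226, and 210.1, 169 and 188 CPM in resistant 5TGM1, against 139.6, 142 and 124 CPM in naive 5TGM1. It was thus lower in resistant 8226 and higher in resistant 5TGM1, with a difference of -1.40 ± 0.14 (adjusted p = 1.4e-07). XBP1 itself fell in both lines, by 1.41 in 8226 and by 0.41 in 5TGM1. BHLHA15, a secretory cell transcription factor, fell by 2.07 in 8226, with a 5TGM1 interval of -0.15 to 0.20, and WFS1, an ER membrane protein, fell in 8226 (-1.04) and rose in 5TGM1 (0.58). CREB3 and the protease MBTPS1, which cleaves ATF6, were higher in resistant 8226, by 0.75 ± 0.06 and 0.92 ± 0.047. Of the 15 sensors and transducers tested, 7 had a difference lower in 8226 and 6 higher.

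**Figure D2:**
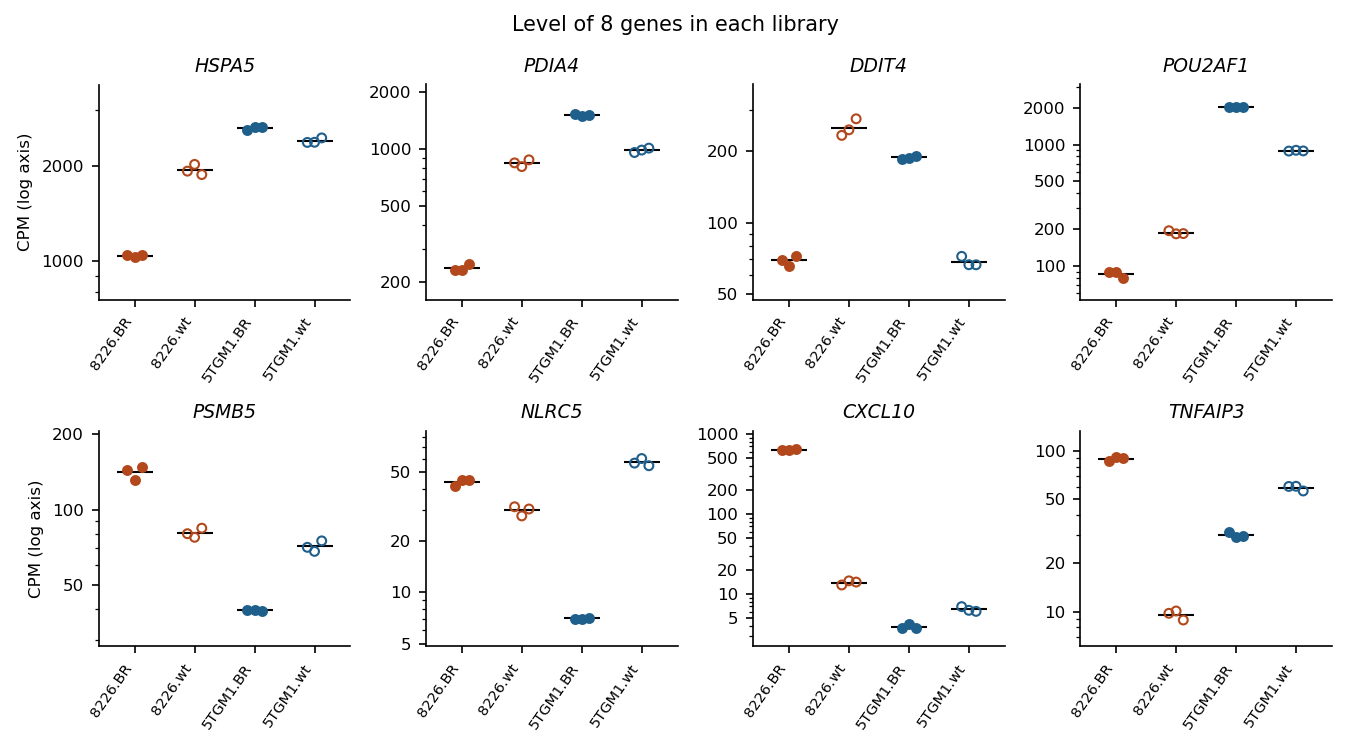
Levels of 8 genes in CPM (log axis) in each of the 3 libraries of resistant 8226, naive 8226, resistant 5TGM1 and naive 5TGM1; each point is a library. HSPA5, PDIA4, DDIT4 and POU2AF1 are lower in resistant than in naive 8226 and higher in resistant than in naive 5TGM1, while PSMB5, NLRC5, CXCL10 and TNFAIP3 run the other way.

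Integrated stress response targets also mostly fell in 8226 and rose in 5TGM1. Of 37 tested, 27 fell and 4 rose in 8226, and 20 rose and 7 fell in 5TGM1. The difference was lower in 8226 for 27 and higher for 2, with a median of -0.56, and 13 had opposite calls of that kind and 0 the reverse. DDIT4, which restrains the growth kinase complex mTORC1, had 69.9, 65.8 and 72.5 CPM in resistant 8226, against 234, 247 and 275 CPM in naive 8226, and 186, 188 and 191 CPM in resistant 5TGM1, against 72.1, 66.4 and 66.4 CPM in naive 5TGM1. The resistant lines ended on opposite sides of their naive parents, with a difference of -3.33 ± 0.085 (adjusted p = 1.6e-15). PYCR1, the last enzyme of proline synthesis, had 77.9, 76.01 and 86.9 CPM in resistant 8226, against 169, 142 and 196 CPM in naive 8226, and 69.7, 63.1 and 65.5 CPM in resistant 5TGM1, against 41.3, 40.9 and 39.3 CPM in naive 5TGM1, a difference of -1.78 ± 0.12 (adjusted p = 9.4e-10).

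PHGDH, which commits glucose carbon to serine synthesis, was all but lost in a single line. It had 0.191, 0 and 0.0273 CPM in resistant 8226, against 127, 125 and 129 CPM in naive 8226, and 317, 319.7 and 300.3 CPM in resistant 5TGM1, against 305, 308 and 332 CPM in naive 5TGM1. Its 8226 change was -10.68 ± 0.17, and the 95% interval of its 5TGM1 change was -0.16 to 0.13. With resistant 8226 near 0, the SE of the 8226 change understates the error. ASNS, asparagine synthetase, fell in 8226 (-1.30), and its 5TGM1 change was 0.13, a call lost without any of 3 single libraries. The stress regulator NUPR1 fell in 8226 (-3.66) and rose in 5TGM1 (0.30). ATF4, which drives the response, changed by -0.32 ± 0.053 in 8226 and 0.03 ± 0.053 in 5TGM1, and DDIT3, its death-linked target, by 0.14 ± 0.078 and 0.45 ± 0.063. BCAT1, a branched-chain aminotransferase, and ADM2, a secreted peptide of the adrenomedullin family, rose in both lines and more in 5TGM1. ADM2 had 63.7, 65.6 and 64.7 CPM in resistant 8226, against 21.02, 19.2 and 21.6 CPM in naive 8226, and 14.5, 15.6 and 15.9 CPM in resistant 5TGM1, against 0.833, 0.760 and 0.959 CPM in naive 5TGM1.

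Hypoxia response genes rose in 5TGM1 and moved both ways in 8226. Of 25 tested, 17 rose and 4 fell in 5TGM1, and 9 rose and 11 fell in 8226, where the list median was -0.10 and turned to 0.10 with library size alone. Of the differences, 17 were lower in 8226 and 6 higher. EGLN3, a prolyl hydroxylase that marks the hypoxia-inducible factors for destruction and is itself one of their targets, had the largest opposite change at 10 CPM or more. It had 0.0547, 0.0293 and 0.0273 CPM in resistant 8226, against 49.6, 49.5 and 51.8 CPM in naive 8226, and 14.6, 14.9 and 14.5 CPM in resistant 5TGM1, against 0.813, 0.677 and 0.796 CPM in naive 5TGM1, a difference of -14.58 ± 0.17 (adjusted p = 2e-19). Resistant 8226 had 4 reads of EGLN3 in all, so this SE understates the error. NDRG1, a stress-induced cytosolic protein, fell by 3.47 in 8226 and rose by 1.48 in 5TGM1, where its level stayed under 1 CPM. PLOD1, a collagen lysyl hydroxylase, fell in 8226 (-0.83) and rose in 5TGM1 (1.35). FAM162A, a mitochondrial protein, rose in 5TGM1 (1.10), with an 8226 change of -0.32 whose call was lost with library size alone. ANKRD37 rose in both lines, by 2.76 in 8226 and 1.01 in 5TGM1.

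In glycolysis, 14 of 22 genes had a difference lower in 8226 and 4 higher, with a median of -0.34. ENO2, the neuronal enolase, had 3.34, 3.10 and 3.50 CPM in resistant 8226, against 56.5, 56.04 and 52.9 CPM in naive 8226, and 2.04, 1.61 and 2.01 CPM in resistant 5TGM1, against 0.244, 0.124 and 0.163 CPM in naive 5TGM1. ALDOC, an aldolase, fell in both lines and more in 5TGM1, with -1.04 in 8226 and -4.74 in 5TGM1. PFKP, a phosphofructokinase that sets the pace of the pathway, fell in 8226 (-0.36) and rose in 5TGM1 (0.93), and the glucose transporter SLC2A3 fell in both, by 4.18 in 8226 and by 2.54 in 5TGM1.

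Cytosolic ribosomal protein genes fell almost as a block in 8226. Of 76 tested, 65 fell and 2 rose in 8226 (list median -0.50), and 41 rose and 3 fell in 5TGM1 (list median 0.19). The difference was lower in 8226 for 64 and higher for 0, and with library size alone it was lower for 54 and higher for 2. RPL4 had 1592, 1496 and 1583 CPM in resistant 8226, against 4053, 4067 and 4022 CPM in naive 8226, and 4429, 4443 and 4672 CPM in resistant 5TGM1, against 4108, 3823 and 3901 CPM in naive 5TGM1. RPL5, which binds MDM2 when ribosome assembly stalls, had 836, 824 and 847 CPM in resistant 8226, against 1219, 1323 and 1255 CPM in naive 8226, and 1260.3, 1259 and 1220.4 CPM in resistant 5TGM1, against 796, 756 and 802 CPM in naive 5TGM1. Both fell in 8226 and rose in 5TGM1, with differences of -1.57 ± 0.071 and -1.27 ± 0.067. RPLP1 and RPLP0, proteins of the ribosomal stalk, fell by 1.81 and 1.04 in 8226, and their 5TGM1 changes of 0.26 and 0.17 lost their calls without single libraries. RPS2 fell by 1.12 in 8226, with a 5TGM1 interval of -0.01 to 0.22. Reads that mapped to several places were not counted, so these genes, which have many near-identical copies, are undercounted and their values are uncertain.

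The mitochondrial ribosome and the respiratory chain gave smaller shifts. Of 75 mitochondrial ribosomal protein genes, 40 rose and 7 fell in 5TGM1, and 24 rose and 33 fell in 8226. The difference was lower in 8226 for 40 and higher for 14, which became 27 and 27 with library size alone. MRPS33 fell by 1.53 in 8226 and rose by 0.29 in 5TGM1. MRPL24 rose in 5TGM1 (77.5, 81.1 and 80.2 CPM in resistant 5TGM1, against 38.4, 34.6 and 38.4 CPM in naive 5TGM1), with an 8226 interval of -0.18 to 0.09. Of 73 respiratory chain genes, 27 rose and 3 fell in 5TGM1, and 22 rose and 31 fell in 8226. The difference was lower for 32 (43.8%) and higher for 16 (21.9%), beside 39.2% and 36.4% of all genes tested. Its median of -0.16 turned to 0.04 with library size alone. NDUFB10, a subunit of complex I, had 58.7, 54.5 and 64.6 CPM in resistant 8226, against 155, 163 and 178 CPM in naive 8226, and 102, 105 and 99.1 CPM in resistant 5TGM1, against 78.8, 71.5 and 78.9 CPM in naive 5TGM1.

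Interferon-induced genes mostly rose in 8226 and fell in 5TGM1. Of 44 tested, 32 rose and 9 fell in 8226 (list median 0.61), and 24 fell and 13 rose in 5TGM1 (list median -0.25). The difference was higher in 8226 for 29 and lower for 9, with a median of 0.91, and 16 rose in 8226 and fell in 5TGM1, against 2 with the reverse pair of calls. The core of the interferon-stimulated response element, GAAA, 2 bases of any kind and GAAA on either strand, lies in 13 of the 33 promoters of these genes found in RefSeq (39.4%), in 2.26% of the promoters of tested genes and in 3.07% of all promoters. Promoters of a chemokine, CXCL10 (chr4:76023498-76023747, minus strand), and of an antiviral ADP-ribosyltransferase, PARP14 (chr3:122680589-122680838, plus strand), are given as above, with the core in capitals.
CXCL10: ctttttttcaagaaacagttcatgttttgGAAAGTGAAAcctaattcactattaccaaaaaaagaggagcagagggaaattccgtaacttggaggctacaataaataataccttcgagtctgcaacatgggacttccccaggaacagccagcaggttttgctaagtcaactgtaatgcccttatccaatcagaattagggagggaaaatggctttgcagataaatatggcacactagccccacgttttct
PARP14: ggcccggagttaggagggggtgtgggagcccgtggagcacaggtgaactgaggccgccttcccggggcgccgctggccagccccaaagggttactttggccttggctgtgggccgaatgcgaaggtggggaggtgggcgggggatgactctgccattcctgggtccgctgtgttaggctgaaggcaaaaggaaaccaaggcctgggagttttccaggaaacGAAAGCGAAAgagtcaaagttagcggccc

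CXCL10, which attracts T cells through the receptor CXCR3, had 636, 629 and 646 CPM in resistant 8226, against 12.99, 14.6 and 14.1 CPM in naive 8226, and 3.75, 4.20 and 3.73 CPM in resistant 5TGM1, against 6.97, 6.27 and 6.08 CPM in naive 5TGM1. All resistant 8226 libraries lay far above the naive ones and all resistant 5TGM1 libraries below, with a difference of 6.24 ± 0.097 (adjusted p = 5e-18). PARP14 had 88.6, 93.99 and 85.98 CPM in resistant 8226, against 56.9, 53.6 and 53.9 CPM in naive 8226, and 4.23, 3.03 and 4.20 CPM in resistant 5TGM1, against 11.2, 11.9 and 10.7 CPM in naive 5TGM1, a difference of 2.27 ± 0.12 (adjusted p = 2.6e-11). The guanylate-binding GTPase GBP2 rose by 8.89 in 8226, with 134, 134 and 127 CPM in resistant 8226, against 0.204, 0.255 and 0.385 CPM in naive 8226; its 5TGM1 change was -0.51 at about 1 CPM, a call lost without 1 library. XAF1, an antagonist of the apoptosis inhibitor XIAP, rose in 8226 (2.30) and fell in 5TGM1 (-0.71). SP110, a nuclear body protein, rose by 1.20 in 8226 and fell by 2.02 in 5TGM1.

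RSAD2, an antiviral enzyme, was an exception. It had 0.109, 0.146 and 0.191 CPM in resistant 8226, against 0.454, 0.357 and 0.688 CPM in naive 8226, and 19.1, 19.1 and 18.2 CPM in resistant 5TGM1, against 3.86, 3.98 and 4.61 CPM in naive 5TGM1. It was lower in resistant 8226, at levels under 1 CPM, and higher in resistant 5TGM1. HERC6 fell in both lines and more in 8226. Among the factors that carry the interferon signal, IRF9 rose in 8226 (1.25) and fell in 5TGM1 (-0.31). The receptor subunit IFNAR2 rose in 5TGM1, with 251, 249 and 249.9 CPM in resistant 5TGM1, against 118, 116 and 116 CPM in naive 5TGM1.

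NF-kB subunits, regulators and targets mostly rose in 8226. Of 36 tested, 28 rose and 6 fell in 8226 (list median 0.84), and 9 rose and 15 fell in 5TGM1 (list median -0.08). The difference was higher in 8226 for 26 and lower for 6, with a median of 0.94. TNFAIP3, the deubiquitinase A20 that shuts the pathway off and is induced by it, had 86.3, 91.1 and 90.1 CPM in resistant 8226, against 9.76, 10.1 and 8.87 CPM in naive 8226, and 31.3, 29.05 and 29.5 CPM in resistant 5TGM1, against 60.1, 60.3 and 56.4 CPM in naive 5TGM1. Its difference was 4.19 ± 0.083 (adjusted p = 5.3e-17). NFKBIA, the inhibitor that holds NF-kB in the cytosol, also rose in 8226 (0.83) and fell in 5TGM1 (-0.40). The chemokine CCL3 had 3.64, 3.34 and 4.24 CPM in resistant 8226, against 0.114, 0.102 and 0.0826 CPM in naive 8226, and 5.06, 5.13 and 5.37 CPM in resistant 5TGM1, against 17.6, 16.4 and 17.8 CPM in naive 5TGM1. LTB, a lymphotoxin subunit, rose to 64.4, 59.3 and 67.3 CPM in resistant 8226, against 3.995, 3.95 and 4.90 CPM in naive 8226, and was under 1 CPM in 5TGM1. BIRC3, an apoptosis inhibitor and ubiquitin ligase of the pathway, rose by 1.97 in 8226, while its 5TGM1 change of 0.17 lost its call without any of 4 single libraries. TNIP2, a partner of A20, rose by 1.77 in 8226, with a 5TGM1 interval of -0.12 to 0.15.

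Genes of antigen processing for MHC class I mostly fell in 5TGM1 and was mixed in 8226. Of 14 genes tested, 9 fell and 1 rose in 5TGM1, and 7 rose and 7 fell in 8226. NLRC5, the transactivator of class I genes, had 41.4, 45.4 and 45.3 CPM in resistant 8226, against 31.5, 27.9 and 30.6 CPM in naive 8226, and 6.97, 7.01 and 7.08 CPM in resistant 5TGM1, against 56.6, 60.2 and 54.7 CPM in naive 5TGM1. TAP1, which pumps peptides into the ER, had 95.9, 95.9 and 105 CPM in resistant 8226, against 61.4, 55.9 and 67.2 CPM in naive 8226, and 56.6, 57.3 and 52.96 CPM in resistant 5TGM1, against 184, 194 and 201 CPM in naive 5TGM1. Both rose in 8226 and fell in 5TGM1, with differences of 3.58 ± 0.09 (adjusted p = 1.2e-15) and 2.48 ± 0.091 (adjusted p = 1.9e-13). The peptide-trimming enzyme ERAP1 rose by 1.35 in 8226, with a 5TGM1 interval of -0.20 to -0.00. B2M, the light chain of class I, fell in both lines, by 0.87 in 8226 and by 1.65 in 5TGM1. TAPBPL, a peptide editor, fell by 1.69 in 8226. Of the class II genes, CD74, the invariant chain, rose in 8226, with 1267, 1204 and 1334 CPM in resistant 8226, against 149, 145 and 149 CPM in naive 8226 and a 5TGM1 interval of -0.01 to 0.21. RFXAP and the lysosomal reductase IFI30 fell in 8226, by 1.13 and 1.26, and rose in 5TGM1, by 0.53 and 0.26.

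In the proteasome, most core subunits rose in both lines, and the drug's own target did not. Of the 14 constitutive core (20S) subunits, 13 rose and 0 fell in 8226 (median 0.52), and 12 rose and 1 fell in 5TGM1 (median 0.25), with 11 up in both. The difference was higher in 8226 for 9 and lower for 1. The subunit that fell in 5TGM1 was PSMB5, the main bortezomib target. It had 144, 132 and 149 CPM in resistant 8226, against 80.1, 77.5 and 84.3 CPM in naive 8226, and 39.5, 39.8 and 39.4 CPM in resistant 5TGM1, against 70.7, 68.1 and 75.01 CPM in naive 5TGM1. Resistant libraries were above all naive ones in 8226 and below all of them in 5TGM1, a difference of 1.66 ± 0.078 (adjusted p = 5.4e-12). PSMB7, the trypsin-like subunit, rose by 0.78 in 8226, with a 5TGM1 interval of -0.23 to -0.01, and PSMB2 rose by 1.02 and 0.21.

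All 5 genes of the immunoproteasome and its PA28 activator fell in 5TGM1, and all 5 differences were higher in 8226. PSMB8 had 93.5, 96.3 and 101 CPM in resistant 8226, against 70.6, 85.7 and 80.8 CPM in naive 8226, and 132, 136 and 135 CPM in resistant 5TGM1, against 399, 381 and 404 CPM in naive 5TGM1. It replaces PSMB5 in the immunoproteasome. PSMB9 rose in 8226 (0.44) and fell in 5TGM1 (-1.47), and PSMB10 changed by -0.08 ± 0.1 in 8226 and fell by 0.96 in 5TGM1. PSME1 and PSME2, the PA28 subunits, fell in both lines and more in 5TGM1, though the 8226 fall of PSME2 lost its call with library size alone. Of the 22 subunits of the 19S cap, which recognises and unfolds ubiquitinated proteins, 10 had a difference higher in 8226 and 4 lower. PSMD5, an assembly chaperone of the cap, fell by 0.63 in 8226 and rose by 0.22 in 5TGM1. PSMD11 rose in 8226 (0.56), with a 5TGM1 interval of -0.14 to 0.03. PSMD6 fell in both lines, with 80.3, 75.1 and 75.7 CPM in resistant 8226, against 154, 183 and 162 CPM in naive 8226, and 76.2, 79.04 and 79.5 CPM in resistant 5TGM1, against 153, 146 and 154 CPM in naive 5TGM1. Its difference was -0.16 ± 0.082 (adjusted p = 0.086).

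**Figure D3:**
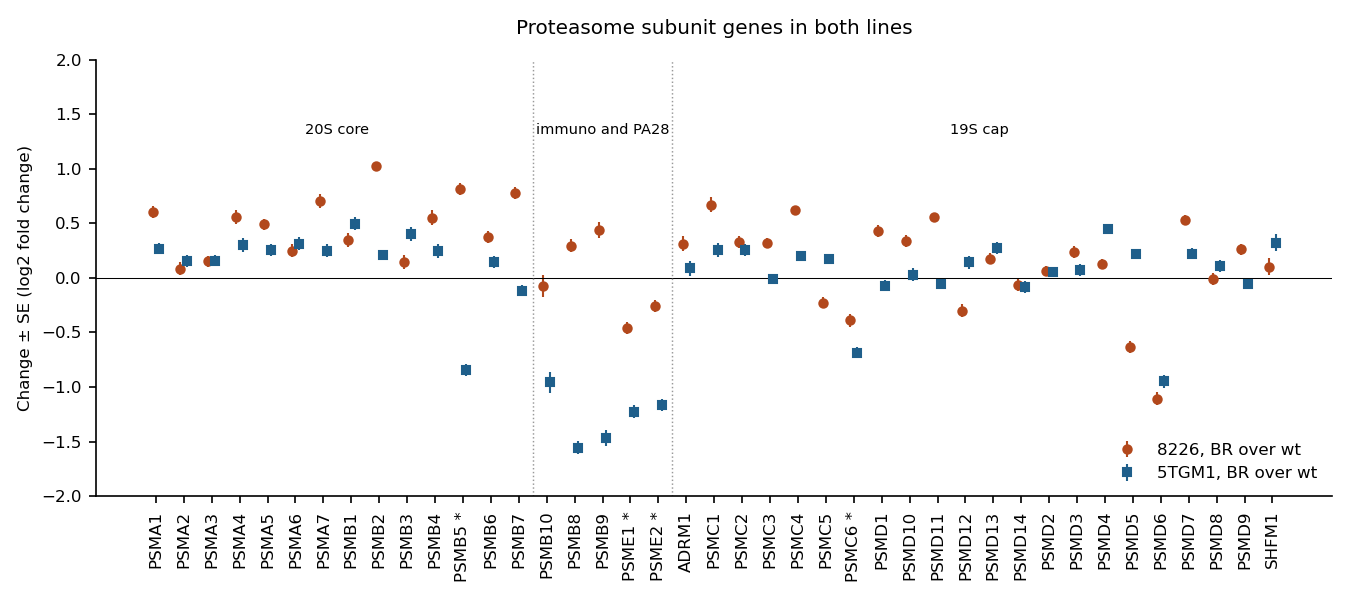
Log2 change (resistant minus naive, ± SE) of each proteasome subunit in 8226 and 5TGM1, grouped as constitutive core, immunoproteasome with PA28, and cap; an asterisk marks genes inside the 5TGM1 block of neighbouring genes. PSMB5 lies above 0 in 8226 (0.81) and below it in 5TGM1 (-0.85), and PSMD6 lies below 0 in both.

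PSMB5, PSMC6, PSME1, PSME2 and IRF9 lie near each other in the mouse table. The tables list genes in genome order, and in windows of 60 tested genes along them, 5TGM1 had 1 block of 6 consecutive windows with a median change at or beyond -0.5, from Gng2 to Gpr18. Its 360 genes had a median change of -0.92, 343 of them (95.3%) lay below 0, and 322 were called lower. The other 5TGM1 windows had medians of -0.40 to 0.28, and genes outside the block a median of 0.02. The block holds 276 of the 8814 shared genes tested (3.13%), 113 of the 891 that rose in 8226 and fell in 5TGM1 (12.7%), and 54 of the 85 that fell in 5TGM1 with a bounded change in 8226 (63.5%). It was picked by its 5TGM1 falls, so higher shares among genes that fell in 5TGM1 follow from that choice. PSMB8, PSMB9, PSMB10, NLRC5, TAP1 and B2M lie outside it. Within it 10 genes were called higher. ERO1L, the oxidase that recharges the disulfide isomerases, had 836, 810.5 and 839 CPM in resistant 5TGM1, against 476, 482 and 463 CPM in naive 5TGM1 (change 0.81). The retinoblastoma gene RB1 had 4.42, 4.28 and 4.85 CPM in resistant 5TGM1, against 4.03, 3.70 and 3.57 CPM in naive 5TGM1 (change 0.26, a call lost without 1 library). In 8226, 30 of 224 windows reached a median of 0.5 in size, 23 of them down and 7 up, in 17 blocks. DNA copy number was not measured, and its part in these results was not tested.

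**Figure D4:**
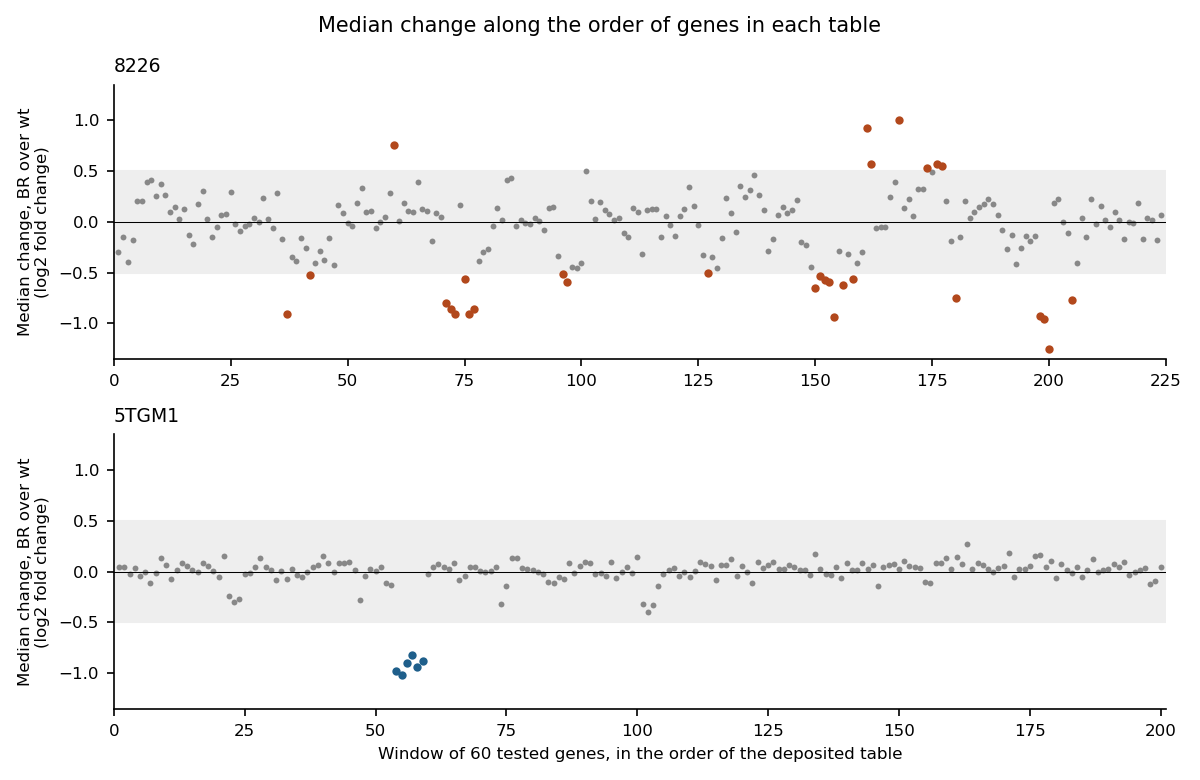
Median log2 change (resistant minus naive) in successive windows of 60 tested genes in table order, for 8226 (top) and 5TGM1 (bottom); the grey band spans -0.5 to 0.5. A single block of windows leaves the band in 5TGM1, against 17 blocks in 8226.

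Plasma cell genes mostly fell in 8226. Of 19 tested, 14 fell and 4 rose in 8226 (list median -1.31), and 9 rose and 5 fell in 5TGM1 (list median 0.19). The summed plasma markers given above moved the same way, and most of that sum is IGJ in 8226 but not in 5TGM1. Members went against it: TNFRSF17, the receptor BCMA, had 148, 140.5 and 145 CPM in resistant 8226, against 38.5, 42.4 and 44.1 CPM in naive 8226, and rose in 5TGM1 as well (0.59). CD38, a surface enzyme, had 133 to 142 CPM in resistant 8226, against 87.7 to 89.4 CPM in naive 8226, and was under 1 CPM in 5TGM1. SLAMF7, a surface receptor, fell in both lines (-5.30 in 8226 and -0.20 in 5TGM1). IGJ, the joining chain of secreted IgA and IgM, had 2176, 2227 and 2271 CPM in resistant 8226, against 6228, 7517 and 7197 CPM in naive 8226, and 3865, 4225 and 4320.4 CPM in resistant 5TGM1, against 2568, 2445 and 2618 CPM in naive 5TGM1. POU2AF1, a B-lineage coactivator of octamer promoters, had 89.97, 88.7 and 80.2 CPM in resistant 8226, against 195, 184 and 185 CPM in naive 8226, and 2054, 2045 and 2032 CPM in resistant 5TGM1, against 887, 900.4 and 889.5 CPM in naive 5TGM1. SDC1, the surface marker CD138, fell by 0.54 in 8226 and rose by 0.63 in 5TGM1. The differences of IGJ, POU2AF1 and SDC1 were -2.35 ± 0.095, -2.32 ± 0.071 and -1.17 ± 0.09. The costimulatory receptor CD28 fell in 8226 (-1.69) and rose in 5TGM1 (0.79). TNFRSF13B, the receptor TACI, fell by 2.59 in 8226, with a 5TGM1 interval of -0.12 to 0.27. PRDM1, the transcriptional repressor that drives the plasma cell state, changed by -1.38 ± 0.057 in 8226 and -0.50 ± 0.053 in 5TGM1. IRF4, on which myeloma cells depend, changed by 0.58 ± 0.051 in 8226 and 0.09 ± 0.051 in 5TGM1.

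Genes of B cell receptor signalling mostly fell in 8226, some to near 0. Of 23 tested, 17 fell and 4 rose in 8226 (list median -2.08), and 13 fell and 2 rose in 5TGM1 (list median -0.19). Of the differences, 14 were lower in 8226 and 8 higher. SYK, the kinase that docks on the activated receptor, had 0.109, 0.0293 and 0.0273 CPM in resistant 8226, against 157, 156 and 152 CPM in naive 8226, and 136, 128 and 129 CPM in resistant 5TGM1, against 124, 138 and 129 CPM in naive 5TGM1. The 5TGM1 libraries overlapped, and the interval of the 5TGM1 change was -0.10 to 0.12. LYN, a SRC-family kinase upstream of SYK, was 1626-fold (95% counting interval 291 to 64240.0) lower in resistant 8226, with 0.0274, 0 and 0 CPM in resistant 8226, against 15.4, 15.7 and 14.3 CPM in naive 8226, and its 5TGM1 change was -0.17. BTK, a kinase of the same pathway, fell by 6.46 in 8226 and fell by 0.43 in 5TGM1. CD180, a Toll-like receptor homologue, fell by 8.42 in 8226 and fell by 2.66 in 5TGM1. ETS1, a transcription factor that restrains plasma cell differentiation in mice, went the other way, with 203, 198 and 184 CPM in resistant 8226, against 8.67, 8.44 and 9.06 CPM in naive 8226 and a 5TGM1 interval of -0.27 to 0.03.

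Adhesion genes moved both ways, and several fell to near 0 in resistant 8226. ITGA4, the alpha chain of the VLA-4 integrin that holds myeloma cells in the marrow, was 4075-fold (95% counting interval 731 to 161000.0) lower in resistant 8226, with 0.0274, 0 and 0 CPM in resistant 8226, against 39.5, 39.7 and 34.3 CPM in naive 8226. In 5TGM1 it had 392, 353 and 386 CPM in resistant 5TGM1, against 383, 427 and 368 CPM in naive 5TGM1, with an interval of the change of -0.20 to 0.08. SPP1, the secreted matrix protein osteopontin, had 0.602, 0.146 and 0.0547 CPM in resistant 8226, against 589.7, 667 and 622 CPM in naive 8226, and its 5TGM1 change was -0.25. The tetraspanin CD81 had 0.629, 0.322 and 0.383 CPM in resistant 8226, against 87.5, 73.6 and 92.9 CPM in naive 8226, with a 5TGM1 interval of -0.09 to 0.21. CDH2, N-cadherin, had 0 CPM in all 3 libraries of resistant 8226, against 2.54, 2.34 and 2.92 CPM in naive 8226, at least 92.7-fold lower, and rose in 5TGM1 (0.47). ITGB7, a partner chain of ITGA4, fell by 2.48 in 8226, and rose by 0.86 in 5TGM1 at about 1 to 2 CPM. Over the 28 genes tested, 16 differences were lower in 8226 and 10 higher.

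Cytokine signalling genes moved both ways in 8226. IL2RG, the chain shared by several interleukin receptors, had 205, 202 and 208 CPM in resistant 8226, against 5.61, 6.01 and 5.73 CPM in naive 8226, and 45.1, 45.1 and 44.7 CPM in resistant 5TGM1, against 66.7, 64.9 and 63.5 CPM in naive 5TGM1, a difference of 5.68 ± 0.07 (adjusted p = 3.7e-19). JAK3, the kinase that IL2RG binds, rose by 3.37 in 8226 and 0.26 in 5TGM1, and STAT4 rose by 3.72 in 8226, with a 5TGM1 interval of -0.07 to 0.27. STAT5A ran against them and was 825-fold (95% counting interval 148 to 32630.0) lower in resistant 8226, with 0.0274, 0 and 0 CPM in resistant 8226, against 7.67, 7.26 and 8.18 CPM in naive 8226 and a 5TGM1 interval of -0.15 to 0.12. Its target CISH, a feedback inhibitor, fell by 2.55 in 8226. IL13RA1 had 0 CPM in all 3 libraries of resistant 8226, against 14.4, 14.5 and 11.8 CPM in naive 8226, at least 488-fold lower, and 87.96, 85.8 and 85.5 CPM in resistant 5TGM1, against 31.9, 36.7 and 36.3 CPM in naive 5TGM1. Of the 30 genes of this group, 16 had a difference higher in 8226 and 12 lower.

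IGF2R led the falls in 5TGM1 among genes whose 8226 change was bounded. It encodes the mannose 6-phosphate receptor, which carries enzymes to the lysosome and clears IGF2. It had 0.108, 0.156 and 0.0406 CPM in resistant 5TGM1, against 77.05, 92.4 and 86.5 CPM in naive 5TGM1, a change of -9.64 ± 0.17. In 8226 it had 404, 461 and 481 CPM in resistant 8226, against 408, 393 and 362 CPM in naive 8226; the 8226 libraries overlapped, and the interval of the change was 0.05 to 0.37. The difference was 9.85 ± 0.2 (adjusted p = 7.4e-17). With resistant 5TGM1 near 0, the SEs of the 5TGM1 change and of the difference understate the error. IGF2R was 1 of 85 genes (0.964%) that fell by at least 1 log2 in 5TGM1 while the 8226 interval stayed within 0.5 of 0, and 29 (0.329%) rose in that way. The same rule with the lines exchanged found 515 genes that fell (5.84%) and 376 that rose (4.27%) in 8226.

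Of the function lists, the immunoproteasome with PA28, the interferon-induced genes and the actin regulators each held 2 such falls. By size of fall, others were in genes of varied function. LCP1, the leukocyte actin bundler plastin, had 202, 184 and 187 CPM in resistant 5TGM1, against 535, 591 and 579 CPM in naive 5TGM1, with an 8226 interval of -0.08 to 0.15. LAPTM5, a lysosomal membrane protein of blood cells, had 53.3, 49.7 and 49.1 CPM in resistant 5TGM1, against 157, 169 and 162 CPM in naive 5TGM1, and rose slightly in 8226 (0.20). SEPT6, a septin, fell by 1.83 in 5TGM1. CDCA2, CAPN7, XPO4, WDHD1 and the dehydrogenase DHRS4 fell by between 1.35 and 1.56 and, like LCP1, lie in the 5TGM1 block of neighbouring genes. Rises were led by ME1, the NADPH-producing malic enzyme, with 115, 115 and 116 CPM in resistant 5TGM1, against 30.2, 31.2 and 29.98 CPM in naive 5TGM1, beside an 8226 change of 0.24. RASA4, an inhibitor of RAS, rose by 1.55, the transcription factor NFIL3 by 1.40, galectin-9 (LGALS9) by 1.40 and the chromatin remodeller SMARCA2 by 1.19. GNB5 and CHCHD6 rose by 1.19 and 1.06.

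Several genes that 5TGM1 kept dropped to 0 counts in resistant 8226. Of the 8814 tested genes, 147 had either the resistant or the naive group at 0 counts in 8226, against 2 in 5TGM1. These totals mix losses and gains, which were not counted apart. ABHD10, a mitochondrial depalmitoylase, had 0 CPM in all 3 libraries of resistant 8226, against 29.4, 35.9 and 33.1 CPM in naive 8226, at least 1170.00-fold lower. Its 5TGM1 interval was -0.02 to 0.32. The sialate esterase SIAE (at least 957-fold), the arginine methyltransferase PRMT6 (at least 958-fold), MYEF2 (at least 921-fold), RHOBTB1 (at least 955-fold) and the protease inhibitor cystatin C (CST3, at least 674-fold) were also at 0 in all 3 resistant libraries. CCDC104 (at least 649-fold), TRMT12 (at least 552-fold) and DHX32 (at least 423-fold) completed the list, and CRIM1 was lower by 5145-fold (95% counting interval 1424 to 42490.0). Of the 515 genes, 160 (31.1%) lie in the 8226 blocks of neighbouring genes, against 13.1% of all tested. The blocks were picked by the same 8226 changes, mostly falls, so a higher share follows from that choice.

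Rises in 8226 with a bounded change in 5TGM1 were led by ANKRD22. It had 20.5, 20.3 and 18.4 CPM in resistant 8226, against 0, 0.0510 and 0.0275 CPM in naive 8226, and 42.2, 42.2 and 42.7 CPM in resistant 5TGM1, against 44.5, 45.05 and 46.8 CPM in naive 5TGM1. HVCN1, the voltage-gated proton channel of B cells, rose by 8.35, the stress kinase MAP4K4 by 7.34, with 65.2, 63.8 and 59.5 CPM in resistant 8226, against 0.363, 0.331 and 0.468 CPM in naive 8226, and the phosphatase PTPDC1 by 5.71. TMEM170B, the sodium/proton exchanger SLC9A7, the membrane-binding annexin ANXA6, MIER2, the actin cross-linker LIMA1 and the corepressor CTBP2 rose by between 4.04 and 5.03.

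Genes with opposite calls and large changes in both lines cut across these groups. RASGRP3, an exchange factor that activates RAS below the B cell receptor, had 24.8, 24.6 and 24.4 CPM in resistant 8226, against 0.159, 0.255 and 0.220 CPM in naive 8226, and 5.80, 5.17 and 5.05 CPM in resistant 5TGM1, against 22.6, 26.4 and 24.2 CPM in naive 5TGM1. TCN2, the vitamin B12 carrier, had 146, 145 and 162 CPM in resistant 8226, against 47.7, 45.4 and 46.4 CPM in naive 8226, and 5.33, 6.0002 and 5.25 CPM in resistant 5TGM1, against 18.6, 18.6 and 18.8 CPM in naive 5TGM1. SMAD3, which carries TGF-beta signals, had 48.1, 49.2 and 41.7 CPM in resistant 8226, against 19.02, 16.9 and 18.1 CPM in naive 8226, and 5.60, 5.27 and 5.76 CPM in resistant 5TGM1, against 12.9, 15.3 and 14.04 CPM in naive 5TGM1. These rose in 8226 and fell in 5TGM1, as did SNX20, GPR155, BBS7 and the lipase ABHD4, the last of which lies in the 5TGM1 block. In the reverse direction, DENND2D, an exchange factor for RAB GTPases, had 17.3, 18.6 and 16.3 CPM in resistant 8226, against 43.6, 46.6 and 42.7 CPM in naive 8226, and 32.6, 29.9 and 29.2 CPM in resistant 5TGM1, against 0.569, 0.608 and 0.551 CPM in naive 5TGM1. ALS2CL had 0, 0 and 0.0273 CPM in resistant 8226, against 14.4, 14.2 and 14.6 CPM in naive 8226, and 15.8, 15.5 and 15.1 CPM in resistant 5TGM1, against 3.92, 3.87 and 3.71 CPM in naive 5TGM1. NXPH4 fell by 3.76 in 8226 and rose by 0.97 in 5TGM1.

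Some genes went the same way in both lines. Of all tested genes, 1131 rose in both (12.8%) and 1312 fell in both (14.9%), and 1510 (17.1%) did so with a called difference in size. MYO6, a motor that moves toward the minus end of actin, had 238, 245 and 221 CPM in resistant 8226, against 2.88, 2.62 and 2.07 CPM in naive 8226, and 17.4, 18.5 and 18.1 CPM in resistant 5TGM1, against 8.82, 9.92 and 9.10 CPM in naive 5TGM1. ABCA1, which exports cholesterol, had 46.3, 47.7 and 46.3 CPM in resistant 8226, against 2.97, 2.40 and 2.56 CPM in naive 8226, and 59.2, 53.8 and 58.4 CPM in resistant 5TGM1, against 37.5, 42.2 and 37.5 CPM in naive 5TGM1. CCDC28B rose by 3.85 in 8226 and 0.74 in 5TGM1. Among shared falls, CALCRL, the receptor for adrenomedullin and CGRP, had 0.246, 0.0586 and 0.0273 CPM in resistant 8226, against 231, 233 and 233 CPM in naive 8226, and 17.9, 17.9 and 16.9 CPM in resistant 5TGM1, against 20.96, 24.5 and 25.8 CPM in naive 5TGM1. HSD17B12, a fatty acid elongation enzyme, fell by 11.53 in 8226 and by 0.68 in 5TGM1. RNASE6 (at least 1760.00-fold), KCTD12 (5206-fold (95% counting interval 1441 to 42990.0)) and the ubiquitin ligase G2E3 (4886-fold (95% counting interval 877 to 193000.0)) were lower in resistant 8226 and fell by 0.47, 0.78 and 0.60 log2 in 5TGM1. RNASE6 and KCTD12 lie in the 5TGM1 block. RIPK3, the kinase of necroptosis, was 250.3-fold (95% counting interval 44.5 to 9921) lower in resistant 8226 and fell by 5.41 in 5TGM1, with 0.324, 0.434 and 0.304 CPM in resistant 5TGM1, against 14.6, 15.6 and 15.7 CPM in naive 5TGM1, also within the block.

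Growth genes mostly fell in both lines. Of 63 cell cycle and replication genes, 43 fell and 5 rose in 8226, and 36 fell and 10 rose in 5TGM1, with 25 down in both. The difference was lower in 8226 for 38 and higher for 16, with a median of -0.30. With library size alone it was lower for 26 and higher for 20, with a median of -0.095. CDKN1A, the p21 inhibitor of cyclin-dependent kinases, had 17.4, 14.9 and 18.2 CPM in resistant 8226, against 23.2, 21.4 and 23.6 CPM in naive 8226, and 328, 343 and 333 CPM in resistant 5TGM1, against 145, 144 and 149.995 CPM in naive 5TGM1, a difference of -1.63 ± 0.088 (adjusted p = 3.1e-11). Cyclin D1 (CCND1) fell by 1.28 in 5TGM1, with an 8226 interval of -0.27 to -0.01, and cyclin D2 (CCND2) fell by 0.58 in 8226 and rose by 0.46 in 5TGM1. CCNB2, thymidine kinase TK1 and the replicative helicase subunit MCM7 fell by 1.65, 1.25 and 1.18 in 8226. In 5TGM1, CCNB2 rose slightly, a call lost without any of 3 single libraries (changes of 0.12 to 0.13 in those runs). Of 52 genes of ribosome biogenesis and the MYC network, 37 fell and 8 rose in 8226 and 33 fell and 6 rose in 5TGM1, and 25 fell in both. The median difference of -0.18 turned to 0.02 with library size alone. MYC fell by 0.39 in 8226 and by 0.15 in 5TGM1. MRTO4 fell by 1.55 in 8226, with a 5TGM1 interval of -0.10 to 0.11, and the polyamine enzymes parted: SRM fell in both lines (by 1.61 and by 0.65), while ODC1 fell in 8226 (-0.54) and rose in 5TGM1 (0.37).

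In both lipid lists more differences were higher in 8226 than lower. In cholesterol synthesis, 16 of 26 rose and 7 fell in 8226, and 11 rose and 9 fell in 5TGM1, and 15 differences were higher in 8226 and 9 lower, with a median of 0.27. In fatty acid synthesis and desaturation, 10 of 15 rose and 4 fell in 8226, 5 rose and 5 fell in 5TGM1, and 11 differences were higher in 8226 and 3 lower, with a median of 0.42. ACAT2, which makes acetoacetyl-CoA in the cytosol, had 305, 285 and 295 CPM in resistant 8226, against 116, 139.5 and 123 CPM in naive 8226, and 7.91, 8.77 and 7.87 CPM in resistant 5TGM1, against 18.9, 18.2 and 19.4 CPM in naive 5TGM1. IDI1, which isomerises isopentenyl pyrophosphate, had 324, 308 and 298 CPM in resistant 8226, against 163, 186 and 174 CPM in naive 8226, and 7.35, 7.66 and 8.84 CPM in resistant 5TGM1, against 11.6, 12.01 and 10.98 CPM in naive 5TGM1. FDFT1, squalene synthase, rose in 8226 (0.79) and fell in 5TGM1 (-0.80), where it lies in the block. MVD rose in 8226 (1.54), with a 5TGM1 interval of -0.08 to 0.30, and the lysosomal cholesterol exporter NPC1 rose in both. FADS1, the delta-5 desaturase, was 1 of the 3 fatty acid genes with a difference lower in 8226, with 51.3, 52.996 and 50.02 CPM in resistant 8226, against 388, 394 and 398 CPM in naive 8226, and 65.9, 63.1 and 58.8 CPM in resistant 5TGM1, against 28.8, 30.9 and 31.8 CPM in naive 5TGM1. ACLY, the source of cytosolic acetyl-CoA, rose in 8226 (0.58) and fell in 5TGM1 (-0.42), while CPT1A, which opens fatty acids to oxidation, was another of the 3, with the reverse pair of changes (-0.36 and 1.02).

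Death genes differed singly. FAS, a death receptor, had 117, 115 and 113 CPM in resistant 8226, against 21.7, 24.7 and 22.4 CPM in naive 8226, and 3.15, 3.28 and 3.29 CPM in resistant 5TGM1, against 8.03, 7.54 and 7.72 CPM in naive 5TGM1. BCL2 rose in 8226 (0.83), with a 5TGM1 interval of -0.20 to 0.02. BCL2L2, an antiapoptotic relative, rose in 8226 (0.64) and fell in 5TGM1 (-0.83), where it lies in the block. BIK, a BH3-only killer, fell by 7.46 in 8226, with 0.0274, 0.117 and 0.0273 CPM in resistant 8226, against 9.94, 9.71 and 11.4 CPM in naive 8226, and rose by 2.22 in 5TGM1 at under 1 CPM. MCL1, a short-lived survival factor, changed by 0.04 ± 0.044 in 8226 and -0.60 ± 0.044 in 5TGM1. Of 15 BCL2 family genes, 8 differences were higher in 8226 and 5 lower. Of 27 death receptor, caspase and related genes, 10 were higher (37%) and 12 lower (44.4%), near the 36.4% and 39.2% of all genes tested.

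Proteotoxic stress genes outside the ER gave equal numbers, with 16 of 43 heat shock genes higher (37.2%) and 16 lower (37.2%) in 8226. These shares were near those of all genes tested (36.4% and 39.2%), but single members stood far apart. HSPB8, a small chaperone that feeds aggregates to autophagy, had 0 CPM in all 3 libraries of resistant 8226, against 2.29, 2.47 and 1.96 CPM in naive 8226, at least 80.4-fold lower, and 80.2, 78.1 and 76.6 CPM in resistant 5TGM1, against 2.34, 2.35 and 2.71 CPM in naive 5TGM1. HSPA4L, a nucleotide exchange factor for HSP70, had 0 CPM in all 3 libraries of resistant 8226, against 5.15, 5.68 and 5.51 CPM in naive 8226, at least 194-fold lower, and 70.1, 66.6 and 70.5 CPM in resistant 5TGM1, against 44.8, 47.4 and 42.4 CPM in naive 5TGM1. In autophagy, 22 of 44 differences were higher in 8226 and 15 lower. GABARAPL1, which coats the autophagosome, rose by 3.95 in 8226, with 22.9, 21.1 and 22.3 CPM in resistant 8226, against 1.18, 1.66 and 1.49 CPM in naive 8226 and a 5TGM1 interval of -0.03 to 0.22, and ULK2, a kinase that starts the process, was 536-fold (95% counting interval 95.8 to 21190.0) lower in resistant 8226 and rose in 5TGM1 (0.54). The cargo receptor SQSTM1 changed by -0.30 ± 0.048 in 8226, a call lost with library size alone, and by 0.50 ± 0.048 in 5TGM1. Of 49 lysosomal genes, 30 rose and 5 fell in 5TGM1, and 21 rose and 19 fell in 8226. HEXA fell by 1.20 in 8226 and rose by 0.55 in 5TGM1, and ARSB had 46.6, 47.1 and 45.998 CPM in resistant 8226, against 23.9, 18.4 and 24.2 CPM in naive 8226, and 2.85, 3.14 and 3.41 CPM in resistant 5TGM1, against 24.5, 26.2 and 24.6 CPM in naive 5TGM1.

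Other routes named in proteasome inhibitor resistance were also examined. Among NRF2 and glutathione genes, 14 of 41 differences were higher in 8226 (34.1%) and 18 lower (43.9%), near the 36.4% and 39.2% of all genes tested. GSTO1, a glutathione transferase, had 58.2, 60.5 and 65.1 CPM in resistant 8226, against 20.5, 21.3 and 28.1 CPM in naive 8226, and 227, 228 and 227 CPM in resistant 5TGM1, against 333, 306 and 316 CPM in naive 5TGM1, and NQO1 rose by 1.20 in 8226. NFE2L1, which raises proteasome genes after inhibition, changed by 0.19 ± 0.048 in 8226 and 0.24 ± 0.047 in 5TGM1, and NFE2L2, NRF2 itself, by -0.62 ± 0.051 and -0.59 ± 0.051. ABCG2, a drug exporter, had 0.219, 0.117 and 0.137 CPM in resistant 8226, against 99.8, 104 and 102 CPM in naive 8226, and stayed under 1 CPM in 5TGM1. Of 22 ABC transporter genes, 13 differences were lower in 8226 and 6 higher. CRBN, the receptor of the thalidomide class of drugs, changed by -0.07 ± 0.057 in 8226 and 0.05 ± 0.051 in 5TGM1, and its difference was -0.12 ± 0.077 (adjusted p = 0.17), with an interval of -0.28 to 0.04. Among actin regulators, 21 of 32 differences were higher in 8226 and 9 lower. MYO10, the motor of filopodia, had 0 CPM in all 3 libraries of resistant 8226, against 80.2, 74.9 and 70.6 CPM in naive 8226, at least 2700.00-fold lower, and fell by 1.20 in 5TGM1. EZR, which ties actin to the membrane, had 537, 527 and 529 CPM in resistant 8226, against 379, 368 and 379 CPM in naive 8226, and 255, 251 and 255 CPM in resistant 5TGM1, against 454, 470.2 and 459 CPM in naive 5TGM1.

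**Figure D5:**
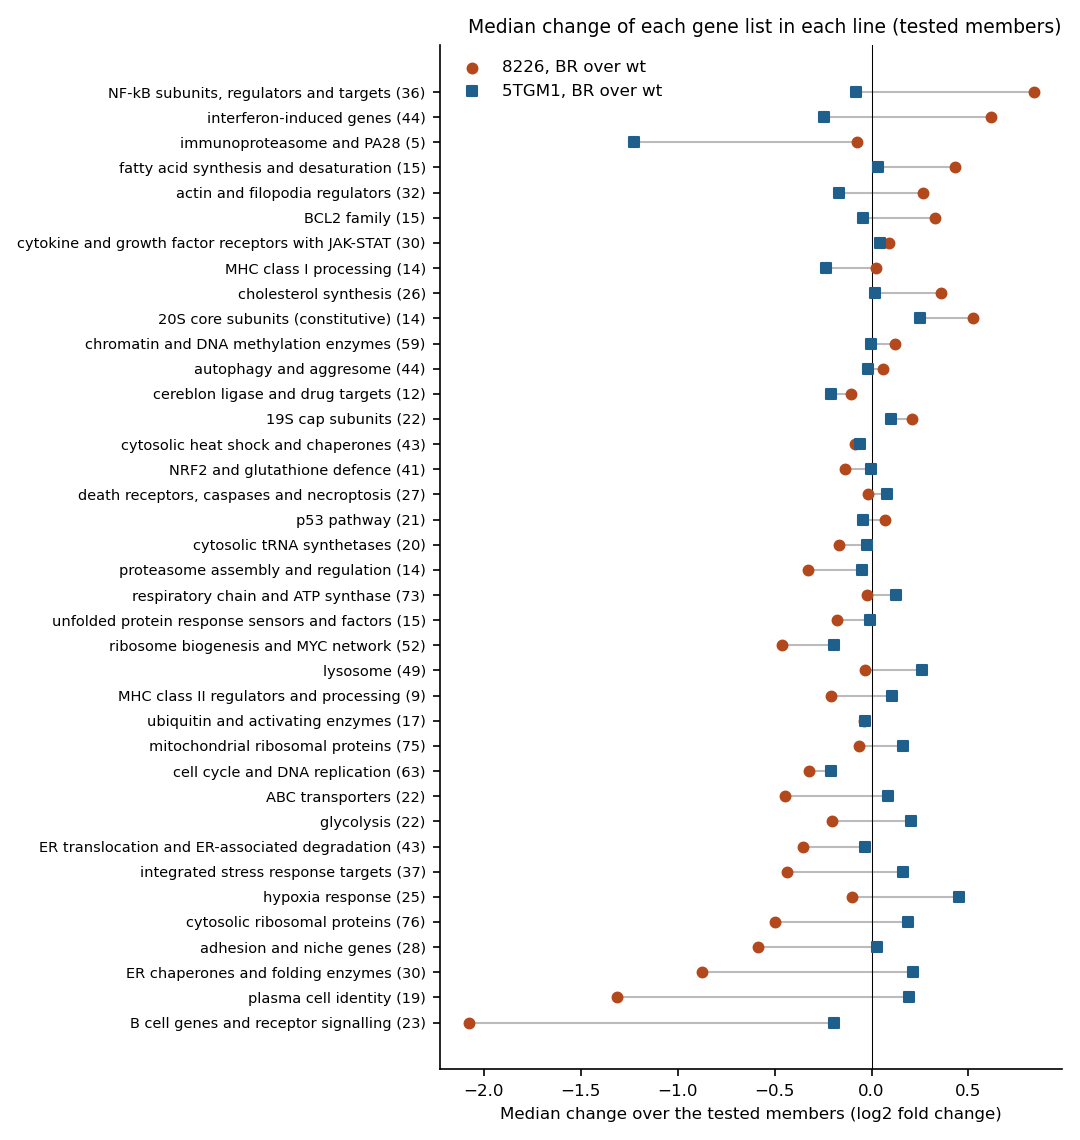
Median log2 change over the tested members of each of 38 function lists, in 8226 and in 5TGM1, ordered by the median of the difference. Interferon-induced genes and NF-kB genes have medians of 0.61 and 0.84 in 8226 against -0.25 and -0.08 in 5TGM1, and ER chaperones have -0.87 against 0.21.

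Over all 38 lists, 3 had a median difference at or above 0.5 and 7 at or below -0.5, and these counts became 8 and 4 with library size alone. The lists are descriptions, with no test of a list against other genes.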

How the data were processed

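RNA sequencing libraries of 4 groups, 3 each, were compared; groups and replicate numbers came from the sample titles. The authors deposited whole-number read counts per gene symbol for each library, not normalized, in STAR's table layout. The submitters' processing notes name STAR, and no version is given in the sources used here. Human (hg19, GRCh37) and mouse (mm10, GRCm38) builds are listed there but not tied to files, so no gene coordinates are taken from the files. Column 4 was used, with 1.52% to 2.12% of stranded reads in the other strand's column. The first 4 rows (totals) were removed; reads on no gene made up 10.4% to 16.6% and reads at several places 9.80% to 16.3%, and neither was counted.

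Human and mouse tables, of 23346 and 23329 genes, were joined by symbol ignoring case. Low genes were removed by filterByExpr within each line. In R 4.3.3, edgeR 4.0.16 fitted all 12 libraries with 4 group means, on TMM-scaled library sizes of each line's whole table. The quasi-likelihood F test was used with Benjamini-Hochberg adjustment over the 8814 genes, and calls were made at 0.05. Changes are log2 values ± SE, intervals are 95%, levels are CPM on TMM-scaled library sizes, and adjusted p-values are two-sided. Each SE is the size of the change divided by the square root of the F statistic. For large changes where a group has few reads, such an SE can be smaller than counting error alone. A bounded change is a 95% interval within 0.5 log2 of 0. On simulated counts for the difference over 8814 genes, with 200 genes changed, 95% of changes of 1 log2 and 82% of 0.5 log2 were recovered, and 0.116% of unchanged genes were called. In the data 6663 genes were called, far more than 200, so these rates do not carry over to the data.

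At these depths 3 counts correspond to 0.0415 to 0.0946 CPM per library. Against a group at 0, "at least" folds set that group at 3 counts in all; with 1 to 3 counts a ratio with an exact interval is given. Both cover counting error only.

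Alternatives were other scalings, filters, DESeq2 1.42.0, each line fitted alone, the other count column, a replicate block, a tighter bound and leaving out each library. Members and lists were chosen with earlier results of these data known. Named genes are those at 10 CPM or more with the largest changes of each kind (10 per direction for opposite and bounded changes, 5 for shared ones), up to 6 members per list with the largest called differences, and genes whose role the text needs. HSP90B1, CALR, CRELD2, PSMC6, PSMD6, B2M, IRF9, NFKBIA, HEXA, ARSB, ERO1L, CD38, CD68, AIF1, EMR1 and RB1 were named after their values were seen, as were the windows of 60 genes. Some genes that meet these rules are not reported here. Promoters came from RefSeq and matched 7358 of the tested genes.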

Additional observations from a re-analysis of the deposited data

Results flagged for a closer look

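The difference itself was tested by edgeR, and the 18 genes below are those reported among the largest opposite changes at 10 CPM or more; other genes named in the text also had opposite calls. Higher in 8226 were RASGRP3 (difference 9.05 log2), TCN2 (3.45), SP110 (3.22), ABHD4 (3.12), SNX20 (3.09), GPR155 (2.86), SMAD3 (2.71), ACAT2 (2.42) and BBS7 (2.36). ABHD4 lies in the 5TGM1 block of neighbouring genes that fell.

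Lower in 8226 were EGLN3 (difference -14.58 log2), IL13RA1 (-13.61), ALS2CL (-12.24), DENND2D (-7.06), NXPH4 (-4.73), FADS1 (-3.97), DDIT4 (-3.33), PDIA5 (-2.62) and POU2AF1 (-2.32). The fitted values of IL13RA1 and ALS2CL depend on the prior count, since resistant 8226 had 0 and 1 reads for them, and are no bound on the difference. All 18 kept their direction in every alternative run.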

How the results depend on the processing

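Alternatives changed some counts. With library size alone, 8226 rises with a bounded 5TGM1 change numbered 585, and lists with a median difference of at least 0.5 in size numbered 8 above and 4 below. Keeping genes that passed in at least 1 line gave 1999 differences of at least 1 log2 lower in 8226, and opposite changes of at least 1 log2 numbered 116 (8226 up) and 120 (8226 down); with no filter these were 2160, 123 and 125. A bound of 0.3 left 201 rises and 261 falls in 8226, and 12 rises and 40 falls in 5TGM1. Without the genes of the blocks, chosen after seeing the data, 28 falls in 5TGM1 had a bounded 8226 change. Windows of 30 or 120 genes, also chosen after seeing the data, put 480 5TGM1 genes in 3 or 1 blocks. For 8226 the number of blocks depended on window size, with 2340 genes in 45 blocks at 30, 1800 in 17 at 60 and 1680 in 11 at 120.

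Leaving out each library in turn gave 3072 to 3253 differences higher and 3339 to 3533 lower in 8226, and at 1 log2 964 to 1002 and 1282 to 1323. Opposite calls ran from 775 to 948 (8226 up) and 952 to 1166 (8226 down), and at 1 log2 in both lines from 73 to 76 and 69 to 75. Bounded classes ran from 348 to 391 and 479 to 553 in 8226 and from 25 to 31 and 79 to 88 in 5TGM1, and lists from 3 to 4 above and 6 to 7 below. Without 1 library a fit rests on 2 libraries in that group.

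Of 265 genes recomputed, 2 differences reversed, both with library size alone: NFE2L2 (0.17) and CANX (0.17). With library size alone the 8226 change also turned for PIK3AP1 (0.056), CRBN (0.14), PRMT5 (0.047), NFIL3 (0.14), SMARCA2 (0.049), MRPL24 (0.15) and CDCA2 (0.17), as did the 5TGM1 change of CRBN with counts of both strands (-0.14). Counted over all genes and alternatives together, a call of a difference was lost 10 times and gained 3 times, so a gene can count more than once.

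Replicate numbers did not pair the libraries: same-numbered libraries deviated with correlations of -0.17, 0.14 and 0.43 in 8226 and -0.14, -0.23 and -0.11 in 5TGM1. A replicate block gave 3248 differences higher and 3479 lower in 8226.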

Other observations

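Some shared symbols were measured well enough in a single line only, so they have no difference between lines. In 8226 there were 1862 of them, of which 656 rose (35.2%) and 1035 fell (55.6%), and in 5TGM1 there were 1110, of which 383 rose (34.5%) and 349 fell (31.4%). Examples chosen after their values were seen follow, first of rises in 8226. SOX2, a pluripotency and neural progenitor factor, had 35.1, 34.1 and 34.3 CPM in resistant 8226, against 0.0681, 0 and 0.0826 CPM in naive 8226. UNC5C, a netrin receptor that guides axons, had 76.8, 79.3 and 75.4 CPM in resistant 8226, against 0.0908, 0 and 0 CPM in naive 8226. TBX18, a developmental T-box factor, had 14.2, 15.99 and 13.7 CPM in resistant 8226, against 0 CPM in all 3 libraries of naive 8226. Among the falls, NCAM1, the adhesion molecule CD56 found on many myelomas, had 0.0821, 0 and 0 CPM in resistant 8226, against 154, 158 and 149 CPM in naive 8226. NLGN1, a synaptic adhesion protein, had 0 CPM in all 3 libraries of resistant 8226, against 40.7, 41.1 and 40.9 CPM in naive 8226, and PLOD2, a collagen lysyl hydroxylase, had 0 CPM in all 3 libraries of resistant 8226, against 15.7, 17.2 and 15.6 CPM in naive 8226.

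In 5TGM1 the ephrin receptor EPHA7 had 121, 116 and 121 CPM in resistant 5TGM1, against 4.86, 4.68 and 4.98 CPM in naive 5TGM1. AFP, alpha-fetoprotein, had 44.8, 46.3 and 43.6 CPM in resistant 5TGM1, against 5.22, 4.74 and 4.90 CPM in naive 5TGM1. WWTR1, the Hippo pathway coactivator TAZ, had 12.2, 12.8 and 11.2 CPM in resistant 5TGM1, against 1.20, 1.28 and 1.53 CPM in naive 5TGM1. GPC5, a surface heparan sulfate proteoglycan, had 0.0180, 0.0520 and 0 CPM in resistant 5TGM1, against 23.3, 23.5 and 22.3 CPM in naive 5TGM1, and ENDOU, a uridylate-specific endonuclease, had 10.8, 11.5 and 9.67 CPM in resistant 5TGM1, against 116, 114 and 115 CPM in naive 5TGM1. The resistant and naive libraries of these genes did not overlap, and the highest level in any library of the other line was 0.0821 CPM or less for SOX2, UNC5C, TBX18, NCAM1, NLGN1, PLOD2, EPHA7, AFP, WWTR1, GPC5 and ENDOU. The cause of these changes was not tested.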
